A study of Mus musculus with 26 samples.

Results

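Trdn, Hmcn1, Itgbl1, Capn6, Car3, and Axin2 are 6 genes whose transcripts were most abundant in preadipocytes carrying the wild-type human insulin receptor. They were chosen by their levels across the receptor lines of these same libraries, out of 52962 gene identifiers counted, and all 6 were among the 15402 genes kept for testing, which exceeded 0.5 CPM (counts scaled to a common library total) in at least 4 libraries. Levels, ratios, and overlaps between lines are therefore given as a description, with no test. Tests are given for insulin against no insulin, a contrast between dishes of 1 line that did not define the choice, and for other genes of the same pathway or families.

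The cells were brown preadipocytes from newborn mice carrying loxP-flanked IR and IGF1R genes, immortalized with SV40 T-antigen. Cre recombinase from an adenovirus inactivated both receptors to give DKO cells, and all lines compared here derive from them. Retroviruses with hygromycin selection returned the human B isoform of the receptor (IR), its kinase-dead K1030R mutant, a truncation that lacks the end of the C-terminal tail (∆CT), or a truncation that keeps only the juxtamembrane stretch of the intracellular domain (JMO). There is 1 stable line per receptor, so the difference between lines cannot be told apart from that between receptors. Whether the DKO libraries came from cells with an empty vector is not given in the labels.

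All cells were starved of serum for 6 h. Dishes of the 4 receptor lines then received 100 nM insulin for 15 min or nothing, and DKO cells received nothing. This gave 26 libraries in 9 groups of 3 dishes, except that ∆CT with insulin had 2. Nothing in the labels says that the dishes were separate cultures, so p-values measure the spread between these dishes, which may be technical.

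The insulin receptor is a tyrosine kinase that phosphorylates itself and docking proteins once insulin binds. The K1030R change removes the lysine that holds ATP. The 6 genes belong to no single pathway. Trdn encodes triadin, which links calsequestrin to the ryanodine receptor at the junctional sarcoplasmic reticulum of muscle. Hmcn1 encodes hemicentin-1, a very large matrix protein related to the fibulins. Itgbl1 encodes a secreted protein built of the cysteine-rich EGF-like repeats found in integrin β subunits. Capn6 encodes a calpain without the catalytic cysteine, which binds microtubules. Car3 encodes a cytosolic carbonic anhydrase that is abundant in adipocytes and muscle. Axin2 encodes a scaffold of the complex that destroys β-catenin, and it is itself switched on by Wnt signaling, which holds back the differentiation of preadipocytes.

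The promoters were read because the 6 genes shared their highest level, and 3 of them are shown to let their letters be compared. RefSeq on GRCm38.p6 held a window for Hmcn1, Axin2, Itgbl1, and Capn6, from 250 bases before the RefSeq start to 50 after it. For Itgbl1 this start differs from that of the locus given below, chr14:123659971. Most of the Itgbl1 window lies after that locus start. The windows lie at chr1:150993386-150993685 on the minus strand for Hmcn1, chr11:108920099-108920398 on the plus strand for Axin2, chr14:123659890-123660189 on the plus strand for Itgbl1, and chrX:143827363-143827662 on the minus strand for Capn6. In the sequences, written 5′ to 3′, capitals mark every match to GTAAACA (the FOXO motif), GGGCGG (the GC box), or CCAAT on either strand.
Hmcn1: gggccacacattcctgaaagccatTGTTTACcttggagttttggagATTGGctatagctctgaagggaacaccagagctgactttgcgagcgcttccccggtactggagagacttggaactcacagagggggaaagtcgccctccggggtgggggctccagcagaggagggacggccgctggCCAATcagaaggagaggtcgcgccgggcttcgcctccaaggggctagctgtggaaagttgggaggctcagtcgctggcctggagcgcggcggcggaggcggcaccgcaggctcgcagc
Axin2: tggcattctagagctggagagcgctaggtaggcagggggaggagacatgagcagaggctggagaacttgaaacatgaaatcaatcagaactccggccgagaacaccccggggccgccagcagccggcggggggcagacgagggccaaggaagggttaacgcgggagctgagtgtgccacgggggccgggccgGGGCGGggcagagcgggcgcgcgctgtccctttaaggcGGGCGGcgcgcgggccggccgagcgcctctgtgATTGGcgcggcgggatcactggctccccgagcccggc
Itgbl1: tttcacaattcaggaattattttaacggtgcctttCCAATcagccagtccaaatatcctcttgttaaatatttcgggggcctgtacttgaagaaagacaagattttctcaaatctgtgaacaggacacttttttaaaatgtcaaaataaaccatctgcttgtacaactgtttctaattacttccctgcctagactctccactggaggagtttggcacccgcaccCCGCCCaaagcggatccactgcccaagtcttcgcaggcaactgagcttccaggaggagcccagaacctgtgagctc

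Axin2 had a GC content of 70.0% with 31 CpG dinucleotides and Hmcn1 of 63.3% with 19, against medians of 52.7% and 7 over 32817 promoter windows of the same length. Capn6 had 54.3% with 5 CpG and Itgbl1 45.3% with 6. CCAAT was present in 4 of 4 windows and in 37.4% of all windows, and the GC box in 3 of 4, Hmcn1 being the exception, and in 35.6% of all. GTAAACA was found once, in Hmcn1 at bases -226 to -220 from the start, and in 3.65% of all windows. The TCF/LEF letters CTTTGAT and CTTTGTT, the motif through which β-catenin acts, were in none of the 4 windows, against 3.73% and 5.85% of all. The CAGCTG form of the E-box read by myogenic factors (16.3% of all), GCGTGGGCG of the EGR factors (0.612%), and TATAAA (13.6%) were also in none. A match is a run of letters, and neither a match nor its absence shows what binds there.

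The libraries held 17228982 to 24694828 counts each. Reads on the mouse Insr sequence, to which reads of the human receptor can also map in part, were at 22.3 to 24.8 CPM in DKO dishes and at 65.5 to 99.7 CPM in dishes of the 4 receptor lines. Reads on Igf1r were at 24.7 to 28.6 CPM in DKO and at 29.7 to 35.7 CPM in the receptor lines. By qPCR and immunoblotting, the paper found neither receptor in DKO cells. Which exons the Insr and Igf1r reads came from was not examined, so they do not show an intact transcript. The labelled cell type had its fibroblast and preadipocyte markers: the summed level of 8 such genes was 3996 to 4276 CPM in DKO, 4440 to 4724 in JMO, 6724 to 7095 in K1030R, 6812 to 7426 in ∆CT, and 7181 to 8531 in IR dishes, most of it from the collagen gene Col1a1. Single markers differed in direction. Ly6a (Sca-1) was lower in IR than in DKO (4.51 and 44.9 CPM, log2 fold change -3.33, adjusted p = 1.3e-21, edgeR quasi-likelihood test), Pdgfrb was at 559 CPM in IR and 630 in DKO, and Dlk1 had 11 counts in all. The part of these markers in the levels of the 6 genes was not tested. Of 6 markers of mature adipocytes, Lep and Cidec were at 0 counts and Ucp1 had 1 count over all libraries. Fabp4, the 1 that was tested, was lower in IR (0.73 CPM) than in DKO (2.48 CPM, adjusted p = 7.4e-05) and JMO (4.42 CPM, adjusted p = 4.0e-09, edgeR). The sum of this list was 0.551 to 1.04 CPM in IR, 2.50 to 2.60 in DKO, and 4.13 to 4.88 in JMO. Of 16 skeletal muscle markers, where Trdn is normally found, Myod1 and Myf5 were at 0, and Myog, Myf6, and Pax7 had 2, 3, and 1 counts in all. The summed muscle markers ranged from 7.86 to 10.6 CPM in IR and from 5.73 to 8.58 CPM over the dishes of the other lines. Neb gave the largest part of the IR sum. Of the 4 tested, Des, Mylpf, and Acta1 had lower means in IR than in DKO and were not called. Des was at 2.60 and 3.51 CPM, Mylpf at 0.333 and 0.434, and Acta1 at 0.447 and 0.470. The median log2 fold change of the 4 was -0.17. One muscle gene, Neb (nebulin of the thin filament), was higher in IR than in DKO (3.92 and 1.33 CPM, log2 fold change 1.56 ± 0.20 (SE), adjusted p = 5.7e-05, edgeR quasi-likelihood test, Benjamini-Hochberg adjusted). Neb was near the IR level in K1030R (3.64 CPM) and ∆CT (3.73 CPM), and IR did not pass against either. Tnmd (tenomodulin), 1 of 3 tendon markers, was also higher in IR (1.15 CPM against 0.02 in DKO and 0.03 in JMO, adjusted p = 5.8e-07 and 1.7e-06, edgeR), while Mkx, another of the 3, was lower (9.13 CPM against 15.8 in DKO and 16.5 in JMO, adjusted p = 0.0319 and 0.00601). Tnmd was at 0.85 CPM in K1030R and 0.78 in ∆CT, and IR did not pass against either. The tendon sum was 15.8 to 19.0 CPM in IR, 22.2 to 22.7 in DKO, 19.8 to 23.7 in JMO, and 13.6 to 15.8 in K1030R and ∆CT. The part of these genes in the levels of the 6 genes was not tested. The brown lineage markers summed to 121 to 154 CPM, nearly all of it from Zic1, while Prdm16 and Ebf2 had 24 and 93 counts in all. The cardiac list summed to 22.1 to 25.1 CPM in DKO, 6.57 to 8.69 in IR, and 7.04 to 11.8 in the other lines, with Tnnt2 lower in IR than in DKO (7.54 and 23.2 CPM, adjusted p = 5.6e-09, edgeR). The endothelial list summed to 7.01 to 17.6 CPM and the macrophage list to 2.26 to 4.64 CPM. What these lists contribute to the levels of the 6 genes was not tested.

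In all 6 genes every IR dish without insulin lay above every dish of each of the other 4 lines. Over all genes tested, IR dishes lay entirely above the K1030R dishes in 21.1%, above the ∆CT dishes in 18.8%, above the JMO dishes in 24.7%, and above the DKO dishes in 28.0%. The 6 genes were selected on this pattern, so nothing is read from that count. The same held with insulin against K1030R, ∆CT, and JMO. Of the 15402 genes, 3676 had their highest mean in IR without insulin and 2485 in both states, and only 100 had an IR mean over 1.5 times that of every other line in both. By the smaller of these ratios Trdn, Hmcn1, and Itgbl1 ranked 1, 2, and 3, with 3.90, 3.65, and 2.82. Car3, Axin2, and Capn6 ranked 28, 30, and 33, with ratios of 1.90, 1.89, and 1.86.

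**Figure D1:**
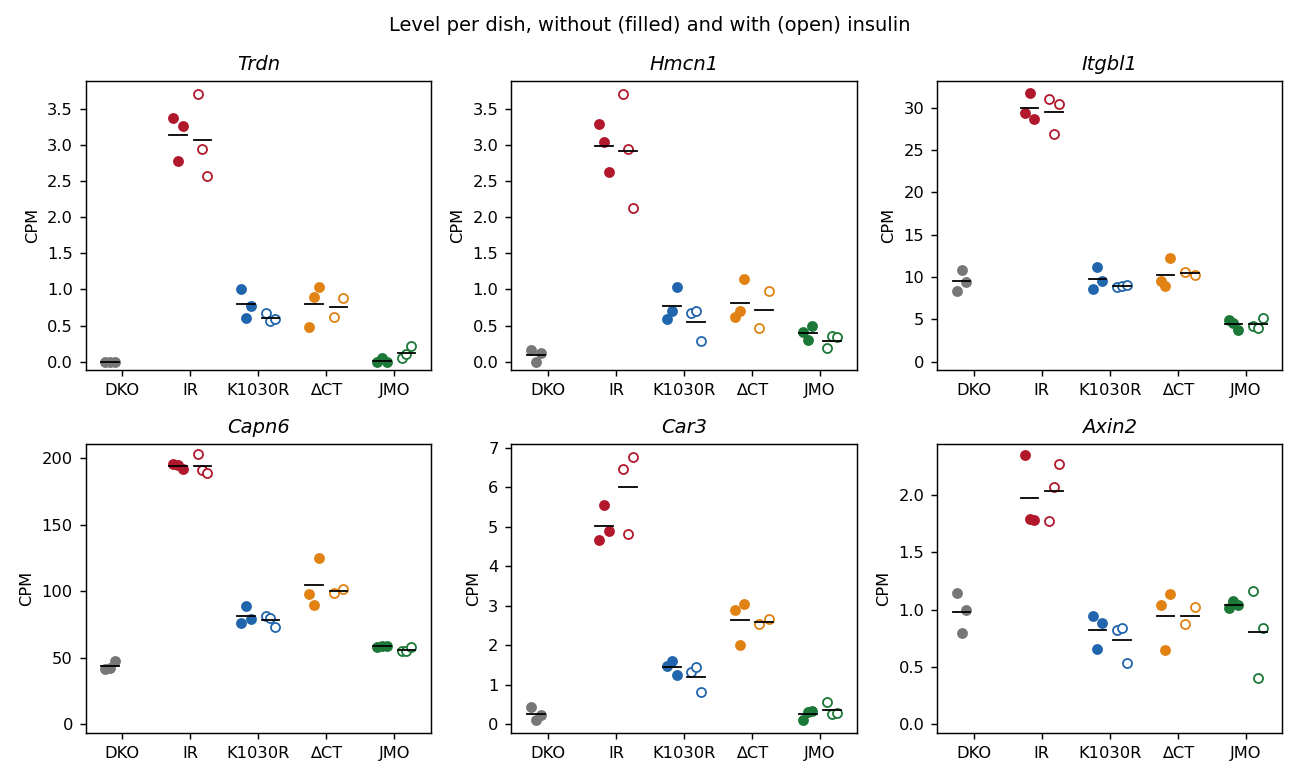
Level of each gene in CPM (y axis, linear) in every dish of the 5 lines (x axis). Filled points are dishes without insulin, open points dishes with insulin, and black lines are group means. IR dishes sit above all others in each panel, while the order below IR differs between genes, with JMO lowest for Itgbl1 and K1030R lowest for Axin2.

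Trdn (ENSMUSG00000019787, chr10:33080554-33476709 on the plus strand, 38 exons in its longest coding transcript) had the widest range across the lines. The raw counts in the 3 IR dishes without insulin were 79, 51, and 66. In K1030R they were 17, 12, and 15, in ∆CT 10, 18, and 20, in JMO 0, 1, and 0, and in DKO 0, 0, and 0. Thus the kinase-dead and the ∆CT line still transcribed the gene at a reduced level, whereas JMO and DKO dishes were at or next to 0. On the CPM scale the mean was 3.13 ± 0.32 (SD, n = 3) in IR, 0.80 ± 0.20 in K1030R, and 0.80 ± 0.29 in ∆CT. K1030R and ∆CT dishes overlapped with each other, and neither overlapped with JMO, which reached 0.0510 CPM. With 3 counts over the group as the floor, IR was at least 62.4-fold higher than DKO. Against the single count of JMO the ratio was 198, with an exact 95% counting interval of 35.1 to 7847, which covers counting error only. With insulin the JMO dishes had 1, 2, and 4 counts, and the IR dishes 75, 64, and 52. An annotated antisense transcript inside Trdn, Gm47842, was at 2.75 CPM in IR and 3.21 CPM in DKO. Whether strand was used in the counting is not given in the sources used here, so reads of the 2 transcripts cannot be fully told apart.

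Hmcn1 (ENSMUSG00000066842, chr1:150562524-150993435 on the minus strand, 107 exons) had nearly the same counts as Trdn in the receptor lines with a kinase domain. The IR dishes without insulin had 77, 56, and 53 counts, the K1030R dishes 10, 14, and 20, and the ∆CT dishes 13, 14, and 22. It differed from Trdn in JMO cells, where the dishes had 10, 6, and 10 counts against 3, 0, and 3 in DKO. The means were 2.98 ± 0.34 CPM in IR, 0.82 ± 0.28 in ∆CT, 0.78 ± 0.23 in K1030R, 0.40 ± 0.09 in JMO, and 0.09 ± 0.08 in DKO (SD, n = 3 each). ∆CT and K1030R dishes overlapped, and every other neighbor in this order was apart. With insulin, JMO and K1030R dishes overlapped as well, at 0.185 to 0.357 and 0.293 to 0.701 CPM. The group sum of 6 counts in DKO has an exact Poisson interval of 2.20 to 13.1, so the low end of the order is set by few counts. The antisense transcript Gm20631 was at 0.61 CPM in IR and 0.59 in DKO cells.

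Itgbl1 (ENSMUSG00000032925, chr14:123659971-123975618 on the plus strand, 11 exons) behaved differently, with a step between IR and everything else. The IR dishes were at 29.4, 31.8, and 28.7 CPM without insulin and at 31.1, 26.9, and 30.4 CPM with it. K1030R dishes were at 8.64, 11.2, and 9.57 CPM, ∆CT dishes at 9.58, 8.94, and 12.2 CPM, and DKO dishes at 8.32, 10.8, and 9.45 CPM. Without insulin each of these 3 lines overlapped with the next in the order. With insulin the ∆CT dishes, at 10.3 to 10.6 CPM, lay above the K1030R dishes, at 8.79 to 9.07 CPM. JMO dishes were lower still, at 4.92, 4.59, and 3.77 CPM, below every DKO dish. The mean in IR was 3.14-fold that of DKO and 6.76-fold that of JMO. The gene is well measured, with 6971 counts over all libraries.

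Capn6 (ENSMUSG00000067276, chrX:143802231-143827414 on the minus strand, 13 exons) was the most abundant of the 6 and the only one in which all 5 lines were apart. Without insulin the dishes were at 196, 195, and 192 CPM in IR, at 98.1, 89.8, and 125 in ∆CT, and at 76.1, 89.0, and 78.9 in K1030R. JMO dishes were at 58.3, 59.1, and 58.5 CPM, and DKO dishes at 41.3, 42.4, and 47.4 CPM. The order was thus IR, ∆CT, K1030R, JMO, and DKO. The gap between the last ∆CT dish and the first K1030R dish was small, at 89.8 against 89.0 CPM. With insulin the order was the same, with means of 194 ± 7.5, 99.9 ± 2.1, 78.4 ± 4.6, and 56.1 ± 1.9 CPM in IR, ∆CT, K1030R, and JMO (SD, n = 3, and 2 for ∆CT).

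Car3 (ENSMUSG00000027559, chr3:14863512-14872523 on the plus strand, 7 exons) also fell in steps. The IR dishes had 109, 102, and 99 counts without insulin, the ∆CT dishes 61, 40, and 59, and the K1030R dishes 25, 32, and 24. JMO had 3, 6, and 7 counts and DKO 8, 2, and 6. JMO and DKO overlapped, and the other neighbors in the order were apart. The means were 5.03 ± 0.46 CPM in IR, 2.65 ± 0.57 in ∆CT, 1.44 ± 0.19 in K1030R, 0.258 ± 0.120 in JMO, and 0.263 ± 0.162 in DKO. JMO and DKO each had a group sum of 16 counts, with an exact Poisson interval of 9.15 to 25.98.

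Axin2 (ENSMUSG00000000142, chr11:108920349-108950783 on the plus strand, 11 exons) had the smallest contrast and, like Itgbl1, a step rather than a grade. IR dishes were at 2.35, 1.79, and 1.78 CPM without insulin and at 1.77, 2.07, and 2.27 CPM with it. The JMO dishes were at 1.02, 1.07, and 1.04 CPM, the DKO dishes at 1.14, 0.796, and 1.001 CPM, the ∆CT dishes at 1.04, 0.649, and 1.14 CPM, and the K1030R dishes at 0.947, 0.654, and 0.880 CPM. Below IR each line overlapped with the next in the order, and the mean in IR was 1.89 to 2.39 times that of the others. The counts behind a dish were 13 to 55 without insulin, and differences among the lower 4 lines were not tested.

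Expressed as a share of the IR excess over DKO cells, the 6 genes fell into unlike shapes. K1030R kept 25.4% ± 4.0 (SE) of the excess for Trdn, 23.6% ± 5.0 for Hmcn1, 25.1% ± 2.8 for Capn6, and 24.8% ± 3.0 for Car3. For Itgbl1 it kept 1.44% ± 5.07 and for Axin2 -15.3% ± 15.0.

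The ∆CT receptor, which keeps the kinase, kept about as much as K1030R for Trdn (25.6% ± 5.6) and Hmcn1 (25.1% ± 6.0). It kept more for Capn6 (40.4% ± 7.2) and Car3 (50.1% ± 7.5). Itgbl1 (3.54% ± 5.97) and Axin2 (-3.59% ± 18.36) again stayed near the level of DKO cells.

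JMO kept 10.7% ± 2.5 for Hmcn1 and 9.95% ± 1.15 for Capn6, and 0.543% ± 0.544 for Trdn, -0.0959% ± 2.44 for Car3, and 6.40% ± 9.67 for Axin2. For Itgbl1 the value was -25.0% ± 4.8, since JMO cells lay under DKO cells. For the lines with insulin, measured against untreated DKO cells since DKO cells were not given insulin, K1030R kept 16.3% to 23.1% for the 4 genes with a graded order and ∆CT 22.2% to 40.6%. These standard errors cover the spread between dishes of 1 line each.

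**Figure D2:**
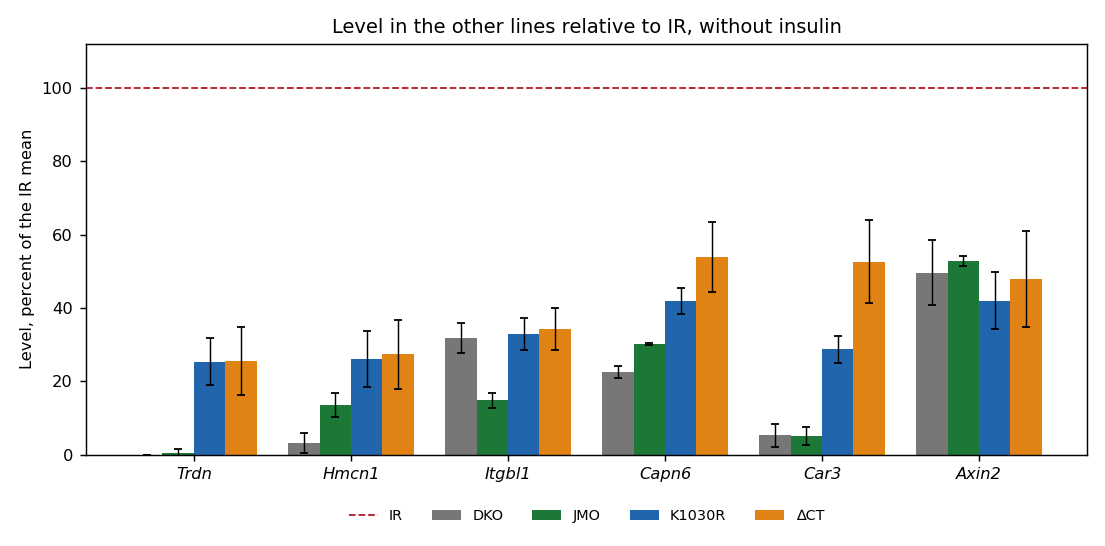
Level without insulin as a percent of the IR mean (y axis, from 0) for each gene (x axis). Bars are means of 3 dishes of DKO, JMO, K1030R, and ∆CT, error bars are SDs, and the dashed line marks IR. K1030R sits at 25.4% to 41.9% of IR in all 6 genes, and the DKO bar ranges from 0 for Trdn to 49.6% for Axin2.

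Per length of the longest coding transcript, the IR level without insulin was 54.5 CPM per kb for Capn6, 7.36 for Itgbl1, 2.99 for Car3, 0.694 for Trdn, 0.463 for Axin2, and 0.167 for Hmcn1. Thus Hmcn1, with a transcript of 17908 bases, had the lowest level per length although its CPM was close to that of Trdn. Over the 9 group means of log2 CPM, the 15 pairs among the 6 genes had Pearson correlations of 0.618 (Trdn and Axin2) to 0.980 (Hmcn1 and Capn6). These values describe genes that were chosen for a shared maximum in IR and carry no test.

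Insulin for 15 min was then compared with no insulin within each line. This contrast did not define the choice of genes, although the choice drew on the levels in all 9 groups. None of the 6 genes passed the test in any line. Over all 15402 genes, the share that passed was 1.87% for IR, 0.156% for K1030R, 1.01% for ∆CT, and 0.364% for JMO (edgeR quasi-likelihood test, Benjamini-Hochberg adjusted p below 0.05). limma voom also passed 0 of the 6 in each line, and DESeq2 0 of the 6 in K1030R, ∆CT, and JMO. In IR, DESeq2 gave an adjusted p for Itgbl1 and Capn6 only, and passed neither. It gave none for Trdn, Hmcn1, Car3, and Axin2.

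The well-measured members had narrow intervals. In IR the log2 fold change of Capn6 was 0.0005 ± 0.0799 (SE), with an approximate 95% interval of -0.16 to 0.16, and that of Itgbl1 was -0.02 ± 0.09, with an interval of -0.19 to 0.15. Car3, at 4.65 to 5.54 CPM without and 4.82 to 6.76 CPM with insulin, had 0.26 ± 0.18 in IR (adjusted p = 0.561). The intervals of the rarer genes were wider, at -0.47 to 0.40 for Trdn, -0.51 to 0.45 for Hmcn1, and -0.41 to 0.48 for Axin2. In each gene and line, the dishes with and without insulin overlapped.

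In K1030R all 6 genes had log2 fold changes under 0, from -0.49 ± 0.38 for Hmcn1 to -0.06 ± 0.09 for Capn6, and the lowest adjusted p was 0.956. In ∆CT the range was -0.15 to 0.03. The single unadjusted p below 0.05 in the 4 lines was that of Trdn in JMO (adjusted p = 0.563, edgeR). It rests on 1 count without and 7 counts with insulin, a ratio of 7.87 with an exact 95% counting interval of 1.01 to 355.

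The difference of the insulin effect from that in IR was tested directly. None of the 6 genes differed in K1030R, ∆CT, or JMO, where 0.37%, 0.00649%, and 0.279% of all genes did. The lowest adjusted p over the 6 genes was 0.713 for K1030R and 0.639 for JMO (edgeR), and for ∆CT no value was under 0.99, with 0, 0, and 1 gene at an unadjusted p below 0.05, the last again Trdn. DESeq2 and limma voom also called 0 of the 6. The interval of the difference was -0.31 to 0.18 on the log2 scale for Capn6 between JMO and IR, and -1.49 to 0.61 for Hmcn1.

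**Figure D3:**
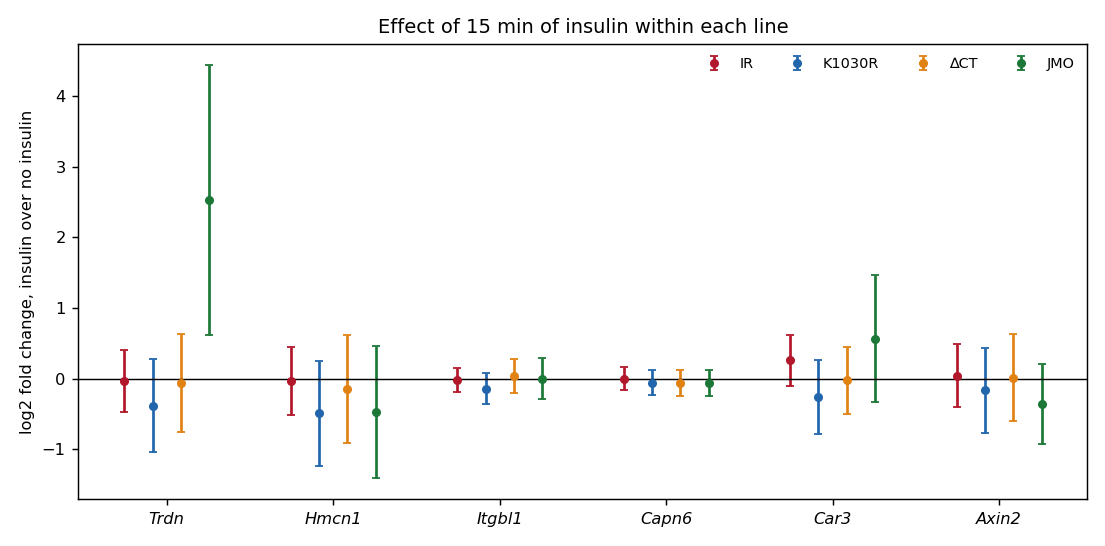
Log2 fold change of insulin over no insulin (y axis) for each gene (x axis) in the 4 receptor lines. Points are fitted values and bars approximate 95% intervals. All intervals but that of Trdn in JMO, which rests on 8 counts in all, include 0.

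Axin2 is the member of the Wnt pathway, so 95 other genes of that pathway were compared between the lines without insulin, at a minimum fold of 1.5. Of these, 69 were tested. In IR against DKO, 11 were higher and 4 lower, where 3.6% and 3.29% of all genes were (quasi-likelihood test against a minimum fold, adjusted p below 0.05). Against K1030R, 3 were higher and 1 lower, beside 0.857% and 0.182% of all genes. Against ∆CT, 1 was higher and 0 lower, beside 0.675% and 0.0325%, and against JMO, 7 were higher and 4 lower, beside 1.94% and 2.65%. The median log2 fold change of the 69 genes was 0.21, 0.13, 0.10, and 0.12 in the same order.

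Of the 15 calls against DKO, 11 were among the 35 tested genes of ligands, receptors, and secreted inhibitors. Of 11 tested ligands and secretion factors, 3 were higher and 1 lower in IR than in DKO. The lower gene was Wnt10b, at 4.12 CPM in IR and 12.3 in DKO (log2 fold change -1.58 ± 0.13 (SE), adjusted p = 4.2e-08, edgeR). It was at 4.09 CPM in K1030R, 4.72 in ∆CT, and 7.60 in JMO. Rspo2, a secreted R-spondin that strengthens Wnt signals, was at 48.5 CPM in IR, 31.0 in ∆CT, 28.3 in K1030R, 20.9 in JMO, and 5.12 in DKO (IR against DKO, log2 fold change 3.24 ± 0.13 (SE), adjusted p = 3.6e-14). Wnt16, a Wnt ligand, was at 2.86 CPM in IR, 1.17 in ∆CT, 0.78 in JMO, 0.59 in DKO, and 0.54 in K1030R. It was the only gene of the list called against all 4 lines, with adjusted p = 2.9e-07 against DKO, 1.6e-06 against K1030R, 0.0394 against ∆CT, and 1.3e-05 against JMO (edgeR). Its call against ∆CT was lost in 10 of 34 alternatives, namely without the first untreated IR dish, without any 1 of the 3 untreated ∆CT dishes, without the second IR or the third JMO dish with insulin, without the filter on low counts, with only the groups compared, and with DESeq2 and limma voom.

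Of 16 tested receptors, 4 were higher and 0 lower in IR than in DKO. Lgr5, a receptor for R-spondins, was at 15.9 CPM in IR, 9.69 in ∆CT, 6.42 in K1030R, 4.83 in JMO, and 2.72 in DKO. Its adjusted p was 7.7e-16 against DKO, 8.1e-06 against K1030R, and 9.6e-11 against JMO (edgeR), and it did not pass against ∆CT. Ror1, a receptor kinase for Wnt5a, was at 2.78 CPM in IR and 0.36 in DKO (2.92 ± 0.25 on the log2 scale, adjusted p = 5.7e-10).

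Among 8 tested secreted inhibitors the directions were mixed. Sfrp2 was at 99.3 CPM in IR and 22.4 in DKO, and at 113 in ∆CT, where IR was not the highest line. Sfrp1 was at 0.13 CPM in IR and 3.46 in DKO (-4.68 ± 0.35, adjusted p = 6.0e-12). Notum, a secreted Wnt deacylase, was lower in IR than in JMO (1.41 and 3.29 CPM, adjusted p = 0.0120, edgeR), a call lost without the third IR dish, without the first JMO dish, and with DESeq2.

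The cytoplasmic relay, in which Axin2 acts, had 0 of 17 tested genes called in any of the 4 comparisons with edgeR, DESeq2, or limma voom. Of all genes, 3.6% were called higher and 3.29% lower against DKO, and fewer against K1030R, ∆CT, and JMO. With shares this low, nothing is read from 0 of 17. At an unadjusted p below 0.05, 1 of the 17 passed against DKO, 1 against JMO, and 0 against K1030R and ∆CT. Axin1, the constitutive counterpart of Axin2, was at 60.2 CPM in IR and 62.6 in DKO, and Ctnnb1, which encodes β-catenin, at 672 and 685 CPM. Znrf3, a membrane ligase that removes Wnt receptors, was at 19.9 and 19.6 CPM, Nkd2 at 4.30 and 7.001 CPM, and Nkd1 and Rnf43 did not pass the filter, with 103 and 81 counts in all.

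Among 17 tested nuclear factors and other targets, 2 were higher and 2 lower in IR than in DKO. Ccnd1, the gene of cyclin D1, was at 16.0 CPM in IR, 32.8 in ∆CT, 34.3 in JMO, 40.6 in K1030R, and 48.4 in DKO, and so had its lowest level where Axin2 had its highest. Its adjusted p was 1.2e-05 against DKO, 0.00266 against K1030R, 0.149 against ∆CT, and 0.0127 against JMO (edgeR), the last lost without the first IR dish and with limma voom. Myc, the other lower gene, also had its lowest level in IR, at 23.7 CPM. It was at 30.5 CPM in ∆CT, 35.3 in K1030R, 51.0 in JMO, and 56.2 in DKO. Its adjusted p was 1.6e-06 against DKO and 6.2e-05 against JMO (edgeR), both kept in all 34 alternatives, and it did not pass against K1030R or ∆CT. Tle4, a corepressor, was at 4.06 CPM in IR and 1.63 in DKO (1.31 ± 0.19, adjusted p = 8.8e-04). IR was not its highest line, since Tle4 was at 5.02 CPM in K1030R and 4.04 in ∆CT. Lef1 was at 1.25 and 1.503 CPM, Tcf7 at 4.57 and 7.29 CPM, and Sp5, like Axin2 a feedback target, had 0 counts in every library.

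**Figure D4:**
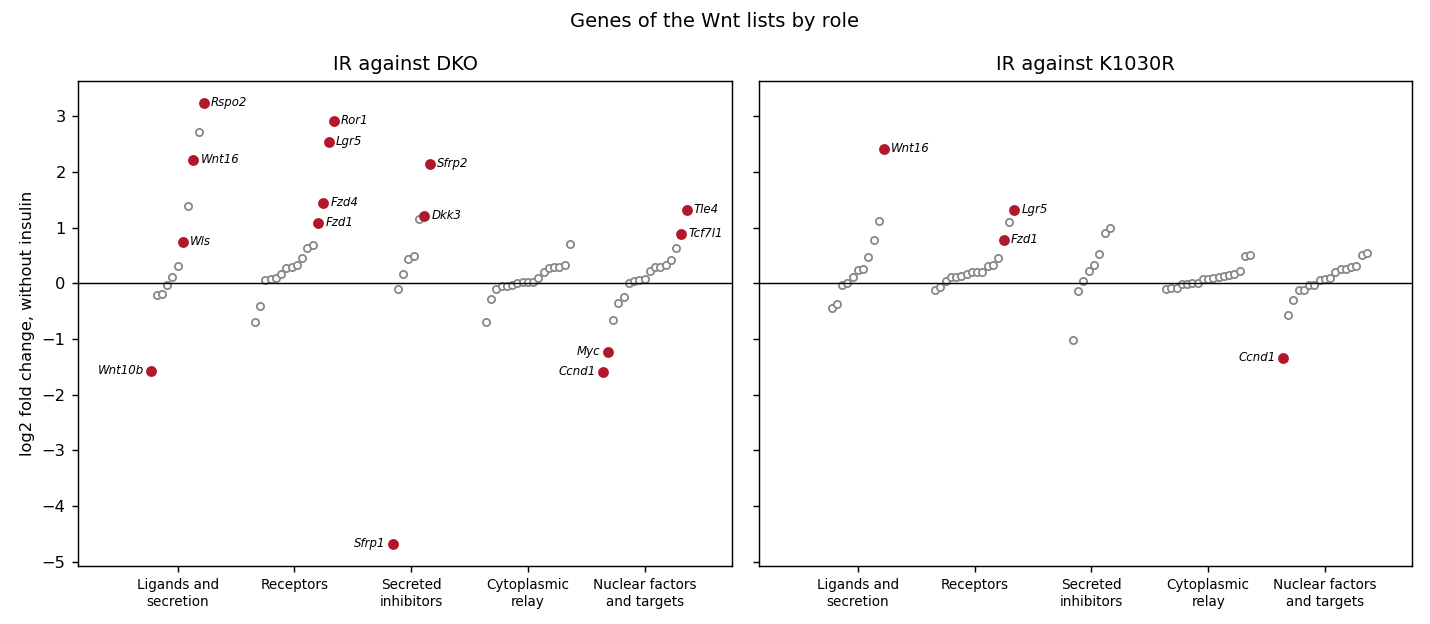
Log2 fold change without insulin (y axis) of the tested Wnt genes, grouped by role (x axis), for IR against DKO (left) and IR against K1030R (right). Each point is a gene, filled and named where it passed the test. The 17 relay genes show no call, beside 3.6% of all genes called higher and 3.29% lower against DKO. Calls against DKO run from Sfrp1 at -4.68 to Rspo2 at 3.24.

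The protein families of the other 5 genes were compared in the same way. Of 67 relatives 40 were tested, of which 3 were higher and 2 lower in IR than in DKO, 2 higher and 0 lower against K1030R, 0 in either direction against ∆CT with edgeR, DESeq2, or limma voom (1 at an unadjusted p below 0.05), and 2 higher and 0 lower against JMO. Of all genes, 3.6% were called higher and 3.29% lower against DKO, and 0.857% and 0.182% against K1030R. The shares were 0.675% and 0.0325% against ∆CT, and 1.94% and 2.65% against JMO. With these shares, nothing is read from such small counts of relatives. The median log2 fold changes of the 40 relatives were 0.11, 0.08, 0.07, and 0.12. Of 22 genes of the calcium release unit 8 were tested, and Ryr1, Casq1, and Casq2, which encode the channel and the calsequestrins that triadin joins, had 67, 79, and 51 counts in all libraries together and were not tested. Ryr2, another ryanodine receptor gene, was tested, with 324 counts and group means of 0.401 to 0.861 CPM, and was not called. Srl, the gene of sarcalumenin, was the 1 called gene, at 18.3 CPM in IR and 9.58 in DKO (0.93 ± 0.08, adjusted p = 4.5e-04, edgeR). Asph, whose locus also encodes junctin, a relative of triadin, was at 191 and 145 CPM and did not pass.

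Among 7 tested hemicentins and fibulins, Fbln7 was higher (1.72 and 0.25 CPM, adjusted p = 1.7e-07) and Hmcn2, the only other hemicentin, lower in IR than in DKO (1.05 and 2.68 CPM, adjusted p = 8.9e-04, edgeR, lost with DESeq2). Fbln7 was at 1.80 CPM in K1030R, so IR was not its highest line. Efemp1 was higher against K1030R (54.8 and 25.2 CPM, adjusted p = 1.5e-08) and against JMO. Of 7 tested integrin β genes, only Itgb7 was called, at 3.54 CPM in IR and 8.31 in DKO (adjusted p = 6.3e-04). Of 9 tested calpain genes 0 were called in any comparison by the 3 tools, and 1 passed an unadjusted p below 0.05 against DKO and 1 against JMO. With the low shares of all genes given above, nothing is read from 0 of 9. The conventional calpain genes Capn1 and Capn2 were at 75.7 and 283 CPM in IR and 58.1 and 235 CPM in DKO.

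The carbonic anhydrases held the closest parallel. Car2, which encodes the fast cytosolic enzyme and starts 13750 bases after Car3, was the 1 called gene of 9 tested. It was at 8.03, 7.93, and 7.36 CPM in the IR dishes without insulin, 3.89, 2.55, and 4.81 in ∆CT, 1.78, 2.67, and 1.71 in K1030R, 1.18, 0.306, and 0.545 in JMO, and 0.435, 0.341, and 0.200 in DKO. The IR level was above that of DKO (log2 fold change 4.61 ± 0.30, adjusted p = 5.7e-12), K1030R (1.91 ± 0.22, adjusted p = 7.3e-05), and JMO (3.45 ± 0.26, adjusted p = 3.1e-10), and did not pass against ∆CT (1.05, adjusted p = 0.299, edgeR). Its means fell in the order IR, ∆CT, K1030R, JMO, and DKO. For Car3 the first 3 lines were in the same order, and JMO and DKO overlapped. Car13, 200510 bases before Car3, was at 34.0 CPM in IR and 22.3 in DKO and was not called. Car1 had 77 counts in all and did not pass the filter.

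Of the nearest expressed genes beside the other members, Nalcn, a sodium leak channel gene 32827 bases before Itgbl1, was also higher in IR. Its IR dishes without insulin were at 1.45, 0.760, and 1.09 CPM, and its DKO dishes at 0.109, 0.227, and 0.360 CPM (2.17 ± 0.39 on the log2 scale, adjusted p = 7.3e-04), and it was higher than in JMO (adjusted p = 7.6e-04, edgeR). DESeq2 gave 0.0656 and 0.0709 for these calls, the highest among the alternatives tried. Against K1030R and ∆CT it did not pass. Prg4, 96359 bases before Hmcn1, was called against ∆CT alone (3.89 and 1.62 CPM, adjusted p = 0.0249), a call lost with DESeq2, with limma voom, with only the groups compared, and without the first or the third untreated dish of IR or of ∆CT. The genes beside Trdn, Capn6, and Axin2 were not called in any of the 4 comparisons. Pak3, which lies 4435 bases from Capn6, was at 72.7 CPM in IR and 76.0 in DKO.

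**Figure D5:**
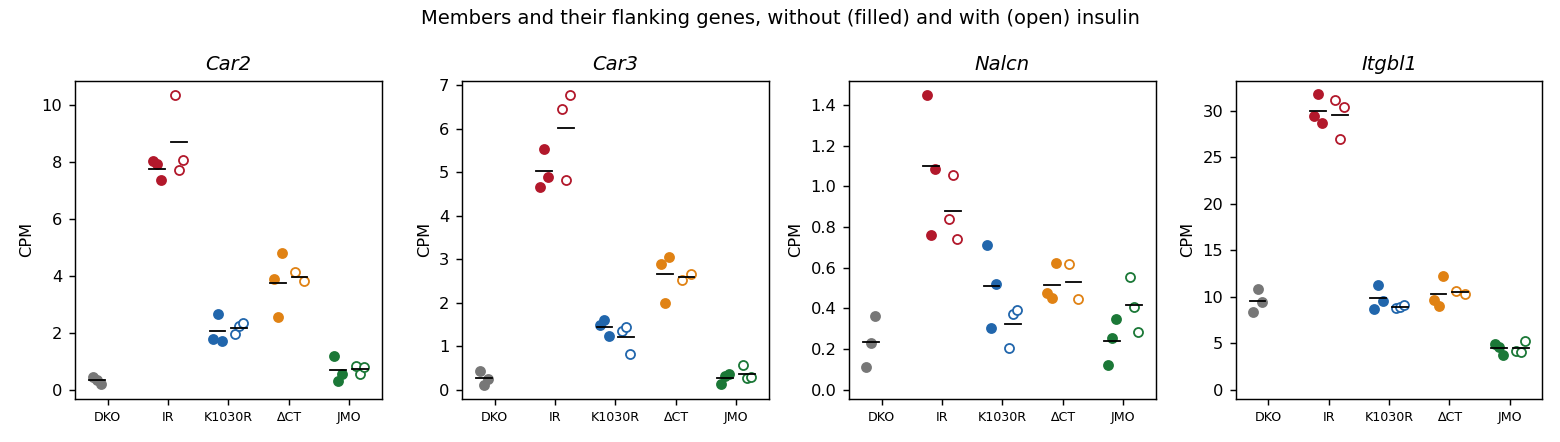
Level in CPM (y axis, linear, a separate range per panel) per dish of the 5 lines for Car2 and Car3, and for Nalcn and Itgbl1, which are neighbors on their chromosomes. Filled points are dishes without insulin, open points with insulin, and lines are means. Car2 and Car3 both fall from IR over ∆CT and K1030R to JMO and DKO, while Nalcn does not show the low JMO level of Itgbl1 relative to DKO.

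For each member the 3 genes with the most similar pattern were found by Pearson correlation of mean log2 CPM over the 9 groups, as a description. For Trdn they were Rps6ka2 (0.991), Usp22 (0.987), and Arhgef2 (0.987), for Hmcn1 Cuedc2 (0.992), Pag1 (0.990), and Ppic (0.990), and for Itgbl1 Jcad (0.997), Tgfbi (0.989), and Mt1 (0.987). Capn6 was nearest to Rab9 (0.998), Svil (0.998), and Matn2 (0.997), Car3 to Spon2 (0.994), Gper1 (0.992), and Zic2 (0.992), and Axin2 to Antxr1 (0.986), Camk2a (0.984), and Dtna (0.971). The span of these genes could differ from that of the member. Jcad, for example, was at 210 CPM in IR, 166 in DKO, and 141 in JMO, a far smaller range than that of Itgbl1. Gper1, a membrane estrogen receptor gene, was at 14.2 CPM in IR, 11.1 in ∆CT, 8.99 in K1030R, 5.26 in JMO, and 4.45 in DKO. Antxr1, nearest to Axin2, was at 81.0 CPM in IR and 57.9 to 63.7 CPM in the other lines without insulin. Of these 18 genes, 7 were named again when single libraries replaced group means and 1 when ranks did.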

How the data were processed

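Poly(A) RNA from 26 libraries was sequenced as single-end reads marked for strand. The authors trimmed reads with fastp, estimated transcript counts with kallisto on the mouse transcriptome of Ensembl, and deposited estimated counts per gene made with tximport. The deposited table was not normalized, and 79.93% of its values were whole. Tool versions and the strand setting are not given in the sources used here.

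Estimated counts were rounded. CPM was computed on library totals scaled by TMM factors (0.966 to 1.05). Genes above 0.5 CPM in at least 4 libraries were fitted in one edgeR 4.0.16 quasi-likelihood model with 1 mean per group (R 4.3.3), on 15402 genes, with Benjamini-Hochberg adjustment over all of them and a threshold of 0.05. Insulin effects and their differences were tested without a minimum fold, and lines against each other with a minimum fold of 1.5, as in the study. The model was also run on simulated counts, with known changes placed only in genes with many counts. That run therefore does not cover genes as rare as Trdn, Hmcn1, Car3, and Axin2. Correlations used log2 CPM with a prior count of 2. Counting intervals are exact at 95%.

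The 6 genes, the gene lists, and the markers were chosen with earlier results of these data known. Beside the 6 genes, the text names the 3 genes with the most similar pattern to each, the 2 called genes of each list with the largest change between IR and DKO, and a set of Wnt components. Efemp1, Neb, Tnmd, Zic1, Asph, Ryr1, Casq1, Casq2, Capn1, Capn2, Car1, and the flanking and antisense genes were named after their values were seen. So were Ly6a, Pdgfrb, Dlk1, Fabp4, Mkx, Tnnt2, Des, Mylpf, Acta1, Ryr2, Wnt10b, and Myc. The calls of Ly6a, Fabp4, Mkx, Tnnt2, and Wnt10b are given for the main model only. Every sample was assigned from its title. The chi-square statistic per degree of freedom between replicate libraries was 2.83 to 22.5, above sampling noise in each of 25 pairs. Alternatives were RLE factors, library totals, other filters, DESeq2 1.42.0, limma 3.58.1, a model of only the groups compared, a replicate block, and each library left out.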

Additional observations from a re-analysis of the deposited data

How the results depend on the processing

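For insulin, none of the 6 genes was called in any line or for any difference under all 245 alternative counts. The DESeq2 count for IR covers only Itgbl1 and Capn6, since that tool gave no adjusted p for the other 4 genes there. Where an adjusted p was given, the lowest adjusted p of any gene under any alternative was 0.301. All 71 alternative counts of genes with every IR dish above another line stayed at 6, including the insulin libraries and each library left out. Nothing is read from this. The genes were selected on this pattern over all 9 groups, and dishes already apart stay apart when a library is left out. The level as a percent of IR ranged most for Trdn in JMO (0 to 4.06%), and for Axin2 in JMO (39.4% to 58.4%), where the insulin libraries gave the lower value and the first IR dish left out the higher.

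The counts of list genes depended on the minimum fold. Without it, 35 Wnt genes were higher and 11 lower in IR than in DKO, 31 and 3 against K1030R, 24 and 4 against ∆CT, and 30 and 9 against JMO. Relatives were then 15 and 11 against DKO, 12 and 3 against K1030R, 8 and 2 against ∆CT, and 14 and 7 against JMO. The share of all genes called without a minimum fold is not given here. These counts therefore show only the dependence on that setting, and no result about the lists. Against ∆CT, the 1 higher Wnt gene became 0 without a filter on low counts, with DESeq2, with limma voom, and with only the groups compared, and without the filter 1 Wnt gene was lower and 1 relative higher. DESeq2 gave 1 lower relative against DKO in place of 2. The cause was not tested. With single libraries left out, Wnt genes higher against ∆CT were 0 to 1, lower 0 to 1, and relatives higher 0 to 1. Against DKO 11 to 13 Wnt genes were higher, against K1030R 2 to 3, and against JMO 5 to 8 higher and 3 to 4 lower.

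Replicate numbers did not pair the libraries. Equally numbered libraries of different groups had a median correlation of their deviations of -0.00111 (-0.108 to 0.0959, 100 pairs). With the replicate number as a block, 0 of the 6 genes were called for insulin, and the Wnt counts against DKO, K1030R, ∆CT, and JMO were 11, 3, 1, and 7 higher and 4, 1, 0, and 4 lower. The block also left the relatives at 3, 2, 0, and 2 higher and 2, 0, 0, and 0 lower.

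The depth limits Trdn, Hmcn1, and Car3 in DKO and JMO, with 0 to 10 counts per dish without insulin.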
